A study of Mus musculus with 5 samples.

Results

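The genes described here belong to 22 families of developmental transcription factors (Fox, Sox, Tbx, Gata, Klf, Irx, Pax, sine oculis (the family of Six5), Dlx, Nkx, Lhx, Meis, Pbx, Pou, Zic, Runx, Hand, Hes, Hey, Emx, Otx and Barhl), selected by symbol among the capture baits of chromosomes 1 to 9. A bait is the restriction fragment at a promoter that was enriched before sequencing, and a gene was kept where the symbol in the bait name began with a family name followed by a digit (for Fox, a letter from a to s and a digit). In the table of original baits, which are single DpnII fragments, 69 of 7674 baits named 51 such genes of 17 families and held 224 of the 28991 listed interactions. In the table of extended baits, which are enlarged to about 5 kb, 97 of 11063 baits named 63 genes of 19 families and held 320 of 50644 interactions. The tables shared 46 of these genes and held 68 between them, beside 106 protein-coding genes of these chromosomes in RefSeq that match the same patterns. The other genes, and 2 further genes matching these patterns, are not analysed here.

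The study measured promoter contacts by capture Hi-C in the supporting cells of mouse gonads at stage E13.5. Sertoli cells carried the Sox9IRES-GFP reporter (3 libraries) and pre-granulosa cells the Enh8-mCherry reporter (2 libraries). Gonads were freed from the mesonephros, and about 100000 cells were sorted by fluorescence for a library, so each group is as pure as its reporter and gate. No perturbation was applied, and the cell types differ in reporter and in the sex of the gonad they came from as well as in identity. Contact scores do not measure expression, so neither label could be checked against marker genes here.

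These families share DNA-binding domains: the forkhead (Fox), the HMG box (Sox), the T-box (Tbx), zinc fingers (Gata, Klf, Zic), the homeodomain (Lhx, Pou, Dlx, Nkx, Meis, Pbx, Barhl, Six5 and most Pax members), the runt domain (Runx) and the basic helix-loop-helix (Hand, Hes, Hey). Their genes are used again and again in development, each in several tissues, and many lie in gene-poor stretches where enhancers act over long distances. In the gonad the supporting lineage takes the Sertoli fate under Sry and Sox9, or the granulosa fate under Wnt signalling and Foxl2. Chromatin contacts of a promoter show which sequences lie near it in the nucleus more often than their distance predicts.

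An interaction joins a bait to a bin of about 5 kb. It carries a CHiCAGO score for each cell type, which weighs the observed contacts against those modelled from distance and technical noise, and a score of 5 or more is taken as a call. An interaction is listed where at least 1 cell type reached 5. The table gives 1 score per cell type for all its libraries, so no value has a replicate error, no test between cell types can be made, and the depth behind a score is unknown. The 95% Wilson intervals given below cover counting error of interactions only.

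The promoters below were picked, after their values were seen, as examples from the genes with contacts at 200 kb or more. Each sequence is the 250 bases before the RefSeq start (build GRCm38.p6), 5′ to 3′ on the gene's strand, with CpG dinucleotides in capitals. Runx3, a runt-domain factor of T lymphocytes and sensory neurons, has a distal and a proximal promoter, and each held an original bait. The distal one, at chr4:135120395-135120644 on the plus strand, has 8 CpG, and the proximal one, at chr4:135152295-135152544, has 38.
Runx3-201: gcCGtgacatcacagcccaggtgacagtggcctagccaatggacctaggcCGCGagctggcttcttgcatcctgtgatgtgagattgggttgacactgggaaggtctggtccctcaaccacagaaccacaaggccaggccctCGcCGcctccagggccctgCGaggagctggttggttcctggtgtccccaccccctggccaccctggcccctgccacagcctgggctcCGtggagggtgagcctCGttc
Runx3-202: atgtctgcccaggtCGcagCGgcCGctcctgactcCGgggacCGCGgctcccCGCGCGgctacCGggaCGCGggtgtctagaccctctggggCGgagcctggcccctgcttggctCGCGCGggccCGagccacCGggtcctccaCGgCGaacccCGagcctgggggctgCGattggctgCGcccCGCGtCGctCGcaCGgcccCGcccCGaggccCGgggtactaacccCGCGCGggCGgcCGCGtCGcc
Sox6, a SoxD-group factor of cartilage and muscle, has several starts on the minus strand. The internal start Sox6-205 (chr7:115824711-115824960) has 2 CpG and 1 DpnII site, gatc, and holds the SOX motif AACAAT, while the outer start Sox6-204 (chr7:116038745-116038994) has 9 CpG and lacks both.
Sox6-205: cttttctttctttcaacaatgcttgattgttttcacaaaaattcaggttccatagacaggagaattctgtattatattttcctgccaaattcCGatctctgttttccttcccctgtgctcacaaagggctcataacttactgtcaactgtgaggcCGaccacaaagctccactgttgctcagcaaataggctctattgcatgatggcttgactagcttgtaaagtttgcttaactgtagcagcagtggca
Sox6-204: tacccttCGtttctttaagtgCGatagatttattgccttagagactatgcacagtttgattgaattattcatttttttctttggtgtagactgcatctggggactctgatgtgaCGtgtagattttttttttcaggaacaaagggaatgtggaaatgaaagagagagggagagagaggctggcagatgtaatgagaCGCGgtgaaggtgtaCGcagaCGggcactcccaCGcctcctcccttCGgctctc
The single-exon forkhead genes Foxd2 (chr4:114908899-114909148, minus strand, 16 CpG) and Foxe3 (chr4:114926068-114926317, minus strand, 6 CpG) lie 15.5 kb apart and contacted touching bins.
Foxd2-201: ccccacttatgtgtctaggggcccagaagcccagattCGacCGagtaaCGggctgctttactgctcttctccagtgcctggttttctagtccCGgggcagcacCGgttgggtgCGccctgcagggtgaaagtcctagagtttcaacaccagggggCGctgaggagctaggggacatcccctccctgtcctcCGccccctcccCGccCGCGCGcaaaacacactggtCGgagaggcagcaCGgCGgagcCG
Foxe3-201: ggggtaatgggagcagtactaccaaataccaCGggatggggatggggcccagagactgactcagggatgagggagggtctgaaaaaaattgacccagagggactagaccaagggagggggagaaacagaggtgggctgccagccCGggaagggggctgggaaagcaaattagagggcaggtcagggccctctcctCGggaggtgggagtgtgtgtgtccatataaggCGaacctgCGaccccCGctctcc
Meis2, a TALE homeodomain cofactor active in limb, heart and brain, starts on the minus strand at chr2:116064620-116064869 with 7 CpG and gave one of the highest far contacts.
Meis2-204: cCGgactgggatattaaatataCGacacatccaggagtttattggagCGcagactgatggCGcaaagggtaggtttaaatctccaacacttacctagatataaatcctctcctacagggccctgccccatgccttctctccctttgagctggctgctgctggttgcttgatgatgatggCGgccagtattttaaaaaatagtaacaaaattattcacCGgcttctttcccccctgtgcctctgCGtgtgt

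RefSeq promoter windows of 300 bases (250 before and 50 after a start) were at hand for 49 of the 68 genes, 68 windows in all. Their median CpG count was 16.5, against 14 in 8861 windows of 7064 protein-coding genes named by any bait. The member median was slightly above that of the baited promoters, which include the members. Quartiles were 8 and 27.25 in the member windows and 4 and 24 in the baited ones, and the difference was not tested. Letters of common motifs, searched on both strands, were counted in them and in the same 8861 windows, and in all 18612 windows of these chromosomes. The median G and C content was 62.5% in the member windows, 57% in the baited ones and 53% in all, and the shares were not corrected for it. The SOX letters AACAAT stood in 8.82% of the member windows (4.11 to 17.9), against 8.77% of the baited and 10.8% of all windows. The forkhead letters GTAAACA stood in 1.47% (0.260 to 7.87), against 2.91% and 3.84%. The letters AGATAA bound by Gata factors stood in 13.2% (7.12 to 23.3), against 9.67% and 11.3%. The nuclear receptor half-site AGGTCA stood in 10.3% (5.08 to 19.8), against 14.6% and 16.3%. All 4 member intervals held the share of the baited windows. The DpnII site GATC occurred in 41.2% of the member windows, 45.4% of the baited and 47.7% of all.

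Of the 224 interactions from original baits, Sertoli cells called 176 and pre-granulosa cells 96. The ratio of 1.83 was close to the 1.93 of all baits (23257 and 12025 calls), so the excess of Sertoli calls was that of the whole table. How far it follows from the number of libraries or their depth was not tested. Both cell types called 48 interactions, 21.4% of the listed ones (16.6 to 27.3) where all baits gave 21.7%. Calls in Sertoli cells alone numbered 128 (57.1%, against 58.5%), and calls in pre-granulosa cells alone 48 (21.4%, against 19.8%). Taking the same number of calls, 12025, from each cell type over all baits sets the ratio of all baits to 1. The member genes then had 85 Sertoli and 96 pre-granulosa calls, a ratio of 0.885, so that the direction turned. The shared calls were 27.3% of the Sertoli calls (21.2 to 34.3; all baits 27.0%) and 50% of the pre-granulosa calls (40.2 to 59.8; all baits 52.3%).

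The extended baits gave 245 Sertoli and 174 pre-granulosa calls, a ratio of 1.41 in the members and in all baits alike. Of the 320 interactions, 99 were shared (30.9%; all baits 34.6%), 146 were called in Sertoli cells alone (45.6%; 44.1%) and 75 in pre-granulosa cells alone (23.4%; 21.3%). In both tables the division between cell types was thus near that of all baits, and what follows describes where the single genes stood. Many calls in a single cell type had a score well above 0 in the other. Of the 128 Sertoli-only interactions, 34 still reached 3 in pre-granulosa cells (26.6%; all baits 33.9%), while 39 stayed under 1 there (30.5%; 23.1%), with 15 at 0 (11.7%; 7.17%). Of the 48 pre-granulosa-only interactions, 24 reached 3 in Sertoli cells (50%; all baits 48.3%) and 6 stayed under 1 (12.5%; 9.71%), with 2 at 0.

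**Figure D1:**
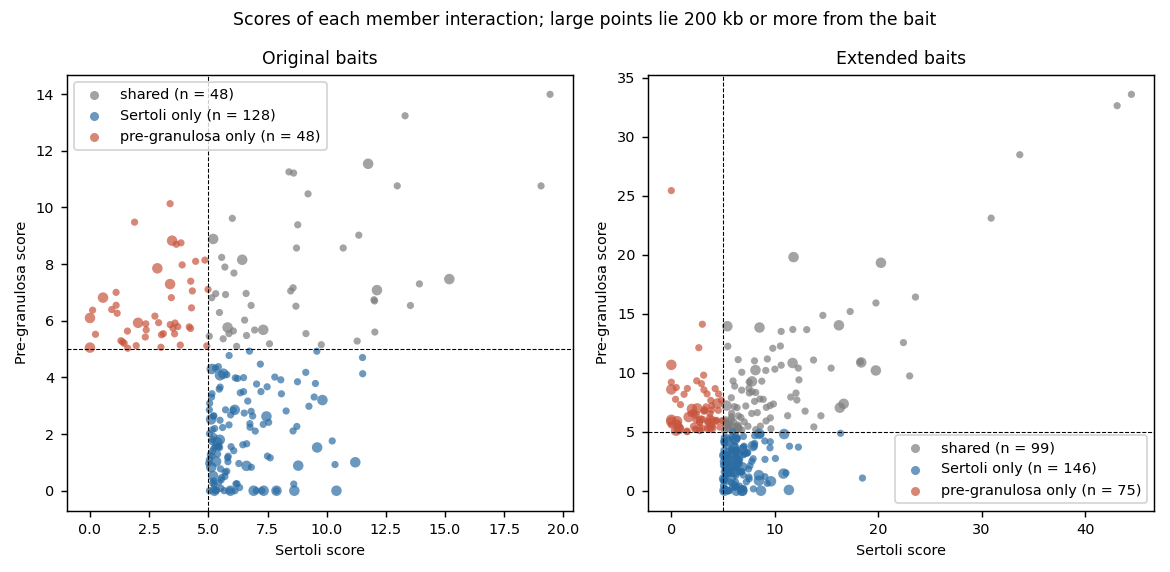
Sertoli score (x axis) against pre-granulosa score (y axis) for each listed interaction of the member genes, with original baits on the left and extended baits on the right; dashed lines mark the score of 5 and large points lie 200 kb or more from the bait. The 128 and 146 Sertoli-only points lie below the horizontal line, many of them close to it, and far contacts occur in every class.

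Counted by bait, 44 of the 69 original baits (63.8%; 65.2% over all baits) and 49 of the 97 extended ones (50.5%; 53.6%) had more Sertoli calls. Pre-granulosa calls led at 15 original baits (21.7%; 22.0%). Counted by gene, Sertoli calls led at 35 of the 51 genes with original baits, pre-granulosa calls at 11, and 5 were even. Calls came from Sertoli cells alone at 15 genes and from pre-granulosa cells alone at 8. With extended baits the division was 36, 18 and 9 of 63 genes. Counts by gene over all baits are not given here, so these counts cannot be read as particular to the families. Of the 46 genes in both tables, 24 had more Sertoli calls in each and 6 had more pre-granulosa calls in each: Nkx1-2, Pax5, Pax8, Pbx3, Sox5 and Sox18. The direction was opposite at 5 genes, Foxd3, Foxj2, Foxm1, Lhx8 and Pax6, and the other 11 were equal in at least 1 table.

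The family with the most interactions from original baits was Pou, with 46 at 4 genes (40 Sertoli calls, 16 pre-granulosa calls, 10 shared). Klf followed with 39 at 5 genes (31, 18 and 10 in the same order) and Lhx with 32 at 6 genes (27, 15 and 10). Fox had the most genes, 13, but 17 interactions (15, 5 and 3), so a forkhead bait seldom had more than 1 contact. Hes had 20 interactions (16, 9 and 5), Pax 18 (11, 11 and 4), Sox 15 (11, 5 and 1) and Runx 14 (10, 4 and 0). With equal numbers of calls the Sertoli excess stayed at Pou (10) and Runx (1), was 0 at Fox, and turned to a pre-granulosa excess at Klf, Lhx, Hes and Sox, while Pax had a pre-granulosa excess of 7. The remaining 9 families had at most 6 interactions each. Zic had 1 Sertoli and 4 pre-granulosa calls, Nkx 5 and 1, and Dlx 5 and 3. With extended baits Klf led with 55 interactions (46, 25 and 16), before Pou with 48 (37, 29 and 18), Fox with 34 (25, 19 and 10), Sox with 33 (26, 14 and 7), Lhx with 33 (27, 20 and 14) and Hes with 32 (28, 9 and 5). The Sertoli excess was then 8 at Pou instead of 24, and 21 instead of 13 at Klf, 19 instead of 7 at Hes and 12 instead of 6 at Sox. The order of the families by Sertoli excess therefore differed between the tables.

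**Figure D2:**
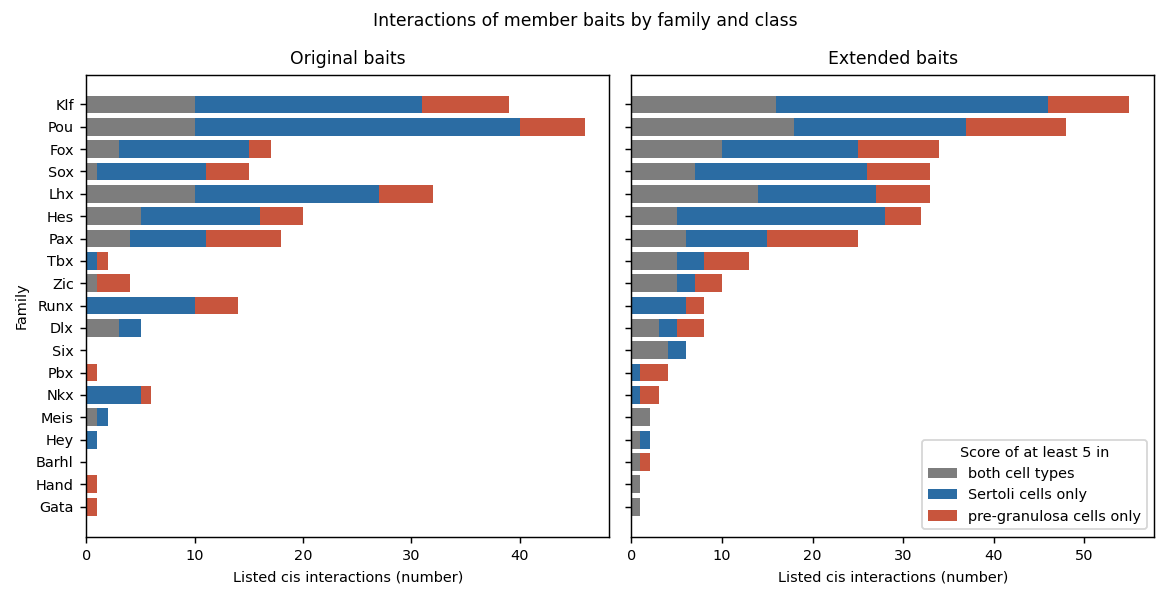
Number of listed cis interactions (x axis) for each family (y axis), with original baits on the left and extended baits on the right; grey marks calls in both cell types, blue calls in Sertoli cells only and red calls in pre-granulosa cells only. Pou, Klf and Lhx hold the longest bars with original baits, and Runx, with 14 interactions, has no grey part.

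Among the runt-domain genes, Runx3 was the one with a bait in these tables. None of its 14 interactions was shared (an interval of 0 to 21.5%, against 21.7% over all baits), and none of its 8 interactions from extended baits was (0 to 32.4%, against 34.6%). Neighbouring bins were called in different cell types. From the distal promoter (Runx3-201, bait chr4:135120382-135121181), the bin 29.2 kb upstream scored 10.4 in Sertoli and 0.924 in pre-granulosa cells, whereas the bin 95.4 kb upstream (chr4:135022348-135028369) scored 1.88 and 9.48. Bins 154 kb and 149 kb upstream had Sertoli scores of 7.02 and 5.27 and were both listed at 0 for pre-granulosa cells, and between these and the 95.4 kb bin a bin 106 kb upstream scored 7.48 and 3.67. Further pre-granulosa calls lay 164.55 kb (3.59 and 5.92) and 100.98 kb (1.95 and 5.12) upstream, so contacts alternated between cell types. Neither of these calls had a match from the extended bait. That bait repeated the 95.4 kb bin in pre-granulosa cells (1.23 and 8.18) and those at 154, 106 and 29.2 kb in Sertoli cells. The alternation there thus rested on the 95.4 kb bin alone. From original baits, 11 of the gene's 14 bins held no RefSeq gene. The CpG-rich proximal promoter (Runx3-202) had a single contact, 207 kb upstream, at 0.550 and 6.82, and 0 and 6.02 from the extended bait. From the extended baits the proximal and distal promoters, 32.3 kb apart, touched in Sertoli cells (6.60) below the threshold of pre-granulosa cells (1.60).

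Pou factors bind octamer sites through a POU-specific domain and a homeodomain. Pou2f1, which encodes the widely expressed Oct-1, alone had 30 interactions (26 Sertoli calls, 9 pre-granulosa calls, 5 shared). With extended baits it had 28 (22, 17 and 11), so its Sertoli excess was 17 in one table and 5 in the other. From Pou2f1-207, a run of bins between 90.1 kb and 135 kb toward lower coordinates, all within Cd247, was called in Sertoli cells alone, with scores of 5.70 to 8.74 in Sertoli and 0.502 to 4.10 in pre-granulosa cells. Within 70 kb of this promoter, 10 of 16 bins were again called in Sertoli cells alone, as at 29.2 kb toward lower coordinates (9.12 and 4.18), and 4 were shared. Some of these went the other way, with 9.21 and 10.5 at 15.5 kb and 4.86 and 8.14 at 48.6 kb toward higher coordinates. Between alternative promoters 28.0 kb apart (extended baits Pou2f1-218 and Pou2f1-207) the scores were 23.0 and 9.73 from one end and 14.5 and 6.36 from the other. Pou2f2, the B-cell factor Oct-2, was called 5 times in Sertoli cells and not in pre-granulosa cells. The highest of these lay 86.7 kb away in Dedd2 (8.61 and 0.235). From a second, extended bait of Pou2f2 the order was opposite at a single contact, with the Cic promoter 149 kb away at 0 and 9.20. With extended baits the gene had 3 Sertoli and 3 pre-granulosa calls, so its Sertoli excess was not repeated there. From Pou2f3-201, Pou2f3, a factor of tuft cells, contacted 3 adjoining bins of its own gene in both cell types, the highest 65.7 kb away at 13.0 and 10.8. A bin 76.0 kb to the other side scored 8.60 and 11.2, and one 212 kb away in Arhgef12 was called in Sertoli cells only (9.60 and 1.53). From Pou2f3-202, bins of the same group were called in single cell types, at 11.5 and 4.13 and at 3.65 and 8.70. Pou2af1, a lymphoid coactivator that carries the Pou symbol but no POU domain, had 3 Sertoli calls and 1 shared call.

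Krüppel-like factors bind GC-rich and CACCC sequences. Klf3, a transcriptional repressor studied in blood and fat cells, had the most far contacts of all these genes: 14 of its 16 interactions lay 232 to 446 kb toward lower coordinates, in 3 groups of bins. From Klf3-205 (chr5:64812350-64812741) the first group scored 15.2 and 7.47 at 431 kb, 6.43 and 8.15 at 425.6 kb, and 10.4 and 0 at 420.4 kb. Adjoining bins of this group, in the uncharacterised locus Gm43837, therefore included shared contacts and one listed at 0 in pre-granulosa cells. The second group scored 9.82 and 3.20 at 307 kb, 11.8 and 11.5 at 301 kb, and 2.85 and 7.85 at 296 kb. The extended bait gave the same groups with higher scores, 16.2 and 14.0 at 433 kb, 11.8 and 19.8 at 428 kb, 11.4 and 0.0653 at 422 kb, and 20.3 and 19.3 at 303 kb. It called the bins matching those at 307 kb and 296 kb in both cell types (16.3 and 7.04, and 8.53 and 13.8). The order of the cell types thus differed between adjoining bins in both tables. It also differed between fragments at a single bin. The adjoining fragment Klf3-202 read the bin at 296 kb as 5.49 and 4.07. The bin about 425 kb away scored 3.47 and 8.83 from Klf3-202 but 5.63 and 4.13 from Klf3-206. Klf1, the erythroid Krüppel-like factor, had 12 interactions in a gene-dense region (9 Sertoli calls, 7 pre-granulosa calls), led by a bin 4.31 kb away at 13.3 and 13.2, and a bin 14.7 kb away over Gcdh and Syce2 scored 3.38 and 10.1. Klf2, a factor of endothelium and quiescent T cells, scored 19.1 and 10.8 at a bin 4.89 kb away, and its other 3 calls were in Sertoli cells alone. Klf13, which had 3 interactions from original baits, had 17 from extended baits (13 Sertoli calls, 8 pre-granulosa calls). Its Klf13-204 bait contacted the Otud7a promoter 182 kb toward lower coordinates at 2.92 and 9.07, and bins 76.3 to 121 kb toward higher coordinates in Sertoli cells alone.

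**Figure D3:**
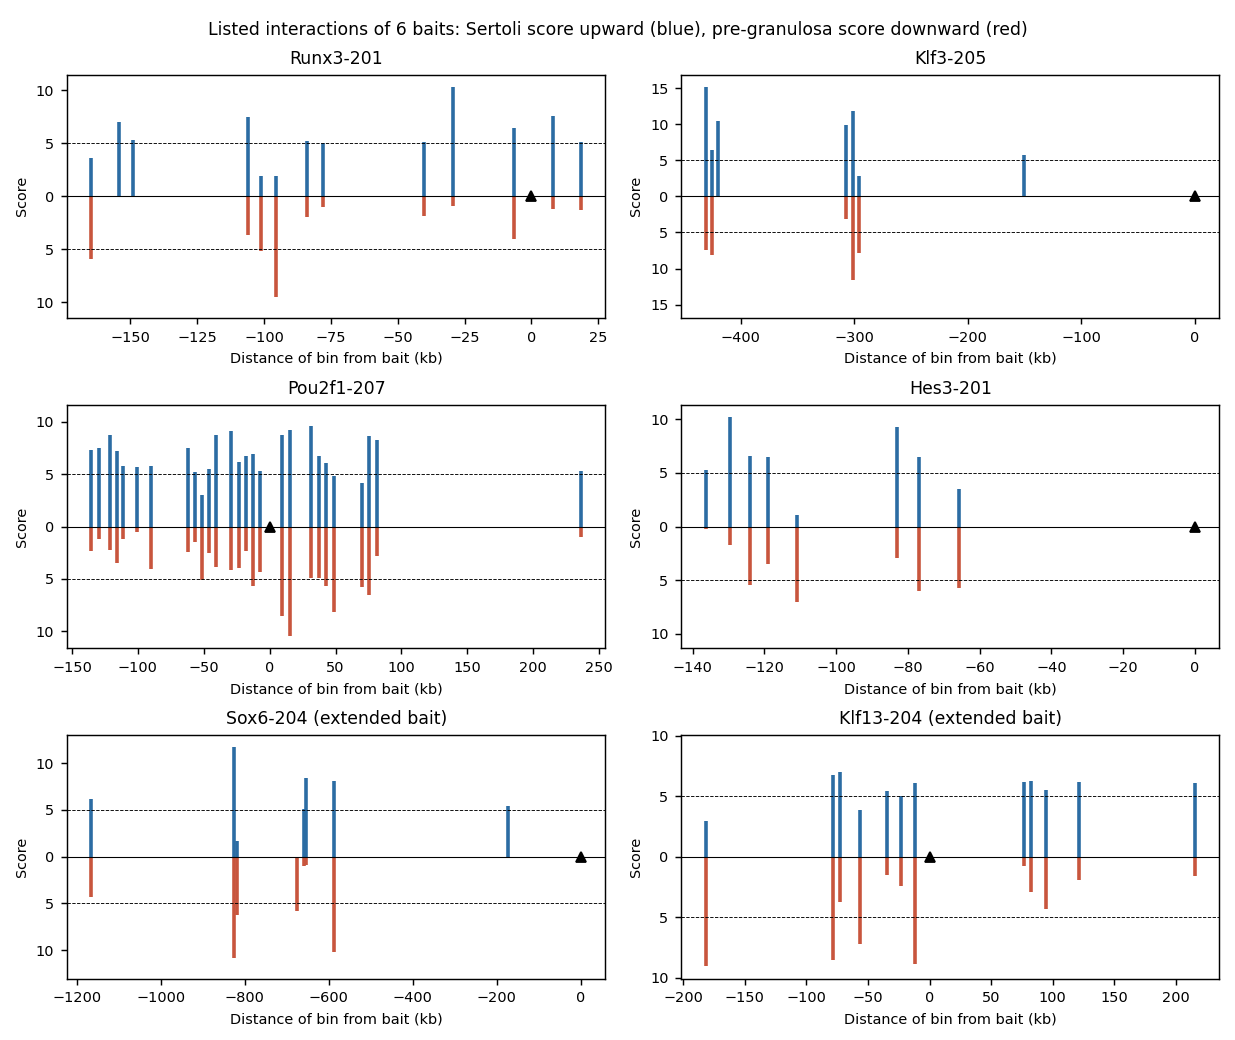
Scores (y axis, Sertoli upward in blue, pre-granulosa downward in red) of listed bins against their distance from 6 baits in kb (x axis, lower coordinates to the left; the triangle marks the bait and dashed lines the score of 5). Runx3-201 shows bins of opposite order next to each other, Klf3-205 has a pair of far groups, and Sox6-204 contacts out to 1165 kb.

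LIM-homeodomain (Lhx) factors pattern forebrain, pituitary and limb, and these genes held the next largest set. Lhx2, which is expressed in the early gonad and is needed for eye and forebrain, scored 11.5 and 4.70 at a bin 8.69 kb away within its own gene and 9.77 and 5.16 at 13.4 kb on the other side. Its far contact, 428 kb toward lower coordinates in Dennd1a (chr2:37922275-37927431), went the other way at 2.03 and 5.93. The extended bait gave 0 and 10.7 at a bin 432 kb away that overlaps it, so the far contact was a pre-granulosa call in both tables while the near ones were higher in Sertoli cells. A pair of Lhx2 starts, 11.3 kb apart, contacted each other at 33.7 and 28.5 from one end and at 15.5 and 10.4 from the other. Lhx3, a pituitary and motor-neuron factor, had 13 interactions (11 Sertoli calls, 7 pre-granulosa calls, 5 shared), with the highest at 13.9 and 7.30 in its own gene. A bin 82.2 kb from Lhx3-201 in Ccdc187 was called in Sertoli cells alone (6.32 and 0.112), yet the adjoining bin, read from Lhx3-202, went the other way (3.02 and 5.51). The Ccdc187-202 promoter was called in both cell types from each extended bait, at 12.9 and 6.75 and at 6.57 and 5.26. Lhx8, needed for cholinergic neurons and oocytes, reached an unannotated bin 217 kb away at 5.21 and 8.89, which the extended bait repeated at 5.42 and 13.9. Another bin at 245 kb scored 5.15 and 4.30, and 5.34 and 7.21 from the extended bait.

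Pax proteins bind DNA through the paired domain. Their genes had as many pre-granulosa as Sertoli calls from original baits (11 each) and 16 against 15 from extended baits. Pax8, a factor of thyroid, kidney and the female reproductive tract, had 2 Sertoli and 4 pre-granulosa calls, and 6 and 7 with the extended bait. Just upstream of its start a bin 3.25 kb away scored 3.84 and 8.75. From the extended bait the Psd4 promoter 87.9 kb away scored 2.45 and 9.32, while the Cacna1b promoter 288 kb to the other side scored 6.86 and 0. Both contacts kept their class when read from the other promoter, at 2.74 and 6.70 from Psd4 and 9.88 and 0 from Cacna1b. Pax5, the B-lineage factor, held the highest score of all original baits of these genes, 19.4 and 14.0 at a bin 3.25 kb away. An intragenic bin 70.2 kb away was called in pre-granulosa cells alone at 0.111 and 6.37 (0 and 5.58 from the extended bait). Pax6, the eye and forebrain regulator, had contacts between its own starts at 43.1 and 32.6 and, from the other end, at 17.3 and 15.2.

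Sox factors bend DNA through the HMG box. The SoxD genes Sox5, Sox6 and Sox13 differed from one another. Sox13 had 5 calls, all in Sertoli cells alone, of which the highest lay 209.6 kb away at Snrpe (11.2 and 1.004), with 6.91 and 0 in the next bin. From the extended bait the Snrpe-204 promoter was shared at 19.8 and 10.2, so the Sertoli-only calls lay beside a contact of both cell types. Sox5, a partner of Sox6 in cartilage, had a single contact 7.91 kb away within its own gene at 0.232 and 5.52 (0.477 and 8.75 from the extended bait). Sox6 had 6 interactions from original baits and 18 from extended ones. Several internal starts contacted the outer start Sox6-204 in Sertoli cells only: Sox6-211 at 180 kb scored 18.5 and 1.07, Sox6-205 at 218 kb 10.8 and 1.45, and Sox6-203 at 197 kb 10.1 and 2.73. The start nearest to it, Sox6-210 at 11.0 kb, scored 11.7 and 13.7. None of the 3 Sertoli-only loops was listed from Sox6-204 as the bait. Shorter contacts within the gene were also called in Sertoli cells alone, Sox6-210 with Sox6-201 at 32.7 kb (5.46 and 3.79) and Sox6-201 with a bin at 20.4 kb (5.49 and 2.51; 5.05 and 2.02 from the original bait). Beyond the gene, Sox6-204 reached bins 588 kb (8.14 and 10.2), 825 kb (11.7 and 10.8) and 1165 kb (6.15 and 4.35) toward lower coordinates, none holding a RefSeq gene. The original Sox6-204 bait gave the bin at 823 kb as a pre-granulosa call, at 3.38 and 7.30. This extended bait also carries the symbol 1110004F10Rik, and its contacts cannot be told apart by gene. Sox17, a factor of endoderm and endothelium, contacted an unannotated bin 270.5 kb away (chr1:4764426-4769632), with 5.81 and 5.76 from Sox17-201 and 8.80 and 0.885 from the nearby Sox17-206. The extended bait joining these fragments scored 18.4 and 10.9. Sox12 contacted Zcchc3 at 23.6 and 16.4, and Sox18, an endothelial factor, had 1 pre-granulosa call at Prpf6 (0.918 and 6.40).

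Forkhead genes had 17 interactions from original and 34 from extended baits, 5 and 6 of them at 200 kb or more. Foxp1, a repressor in heart, lung and lymphocytes, had a single contact 505 kb toward lower coordinates at 8.63 and 0, and at 6.86 and 0 from the extended bait. Foxd2 and Foxe3, a lens gene, contacted touching bins in Gm33655, 242 kb away at 7.34 and 0 and 253 kb away at 6.12 and 2.86. Foxc2, a factor of lymphatic vessels and mesenchyme, had Sertoli-only calls at 275 kb (5.12 and 0.830) and 397 kb (7.46 and 2.62). The 5 far forkhead contacts of the original baits were all Sertoli calls, where all baits had 1626 far Sertoli and 609 far pre-granulosa calls. With extended baits 1 of 6 was a pre-granulosa call. That one joined starts of Foxp2, a factor of brain and lung, 299 kb apart at 4.45 and 7.39, beside another pair 288 kb apart at 10.9 and 4.81, which is counted from each end among the 6 (5.77 and 2.13 from the other). Foxm1, a factor of cell division, had 11 of the 34 interactions from extended baits, 6 Sertoli calls and 9 pre-granulosa calls with 4 shared, the farthest 122 kb away. Of these, 3 came from a bait that also carries the symbol Rhno1. Its original bait had a single Sertoli call at 112 kb (5.22 and 0.351). Foxd3, a neural crest factor, had a bin 3.84 kb away at 3.44 and 6.82. Foxj2 shared a contact with Necap1 51.8 kb away (5.31 and 6.96; 9.13 and 10.2 from the extended bait).

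Hes and Hey proteins are repressors downstream of Notch signalling. Hes2 and Hes3 lie 123 kb apart and contacted each other in Sertoli cells only: with extended baits the scores were 11.1 and 1.51 from Hes2 and 9.05 and 1.19 from Hes3-201, and 7.39 and 3.22 and 6.98 and 3.06 for Hes3-202. From the original Hes3-201 bait the Hes2 bin 129.6 kb away scored 10.2 and 1.76. Within Acot7, which lies between them, the order was opposite at the Acot7-202 promoter, 113 kb from Hes3-201, at 3.00 and 14.1. From the extended bait Hes3-202, 107 kb away, the same promoter was instead called in Sertoli cells alone, at 8.06 and 4.66. Hes5, a Notch target of neural progenitors, scored 13.54 and 6.54 at 7.52 kb and 1.15 and 6.27 at 53.1 kb in Plch2. Hes6 contacted Ilkap at 16.4 and 4.87. Hey1 contacted an unannotated bin 60.2 kb away in Sertoli cells (5.55 and 0.384), and its extended bait shared Mrps28 at 259 kb (7.80 and 9.27).

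The remaining families had single contacts that differed in direction. Dlx1 and Dlx2 are a linked pair of interneuron and craniofacial genes, and Dlx1-201 contacted a Dlx2 bin 14.3 kb away at 12.0 and 5.60, while with extended baits it contacted the Dlx2-201 promoter itself, 21.4 kb away, at 4.55 and 6.81. Dlx5 and Dlx6, another linked pair, contacted each other in pre-granulosa cells only (3.25 and 6.79 from Dlx5, 2.75 and 5.10 from Dlx6). Zic1 and Zic4, a divergent pair active in cerebellum, did so at 2.13 and 6.62 from the extended Zic1 bait, but both cell types passed 5 from Zic4-201 (5.46 and 12.2). From the original bait Zic4-209 a bin over Zic1, 12.4 kb away, scored 4.46 and 8.10. The extended bait called that region, which holds the Zic4-208 start, in both cell types at 13.1 and 13.7. Neighbouring starts of Zic4 had the highest scores of the member genes, 44.5 and 33.6. Nkx6-3, a stomach factor, had 5 Sertoli calls, 3 of them with 0 in pre-granulosa cells, at 74.4 kb (7.27), 128 kb (7.87) and 207 kb (5.26), the first pair in Ank1. From the extended bait the bin at 128 kb was again a Sertoli call, at 6.74 and 0.0383, and the other 4 bins had no match in that table. Meis2 contacted a bin without a gene, 208 kb away (chr2:115853789-115858855), at 12.1 and 7.08 from Meis2-204 and at 5.93 and 0 from the adjoining fragment Meis2-201. The extended bait scored 16.7 and 7.37. Pbx3, a partner of Meis proteins, had a contact 269 kb away at 0 and 6.10, the single one of its original bait (0.711 and 5.26 from the extended bait). The extended bait had a further one, 35.99 kb away at Mapkap1, at 3.04 and 6.04. Tbx5, the heart and forelimb factor, contacted a bin 230.3 kb away at 0 and 5.05 and one 256 kb away at 6.61 and 0.878, and the extended bait kept both orders at 0 and 8.58 and at 8.52 and 4.81. Gata5, an endoderm and heart factor, scored 1.59 and 5.03 at 13.7 kb, and Hand2, a heart and limb factor, 4.26 and 7.40 at 6.70 kb over Hand2os1. The only contact from the extended bait of each was called in both cell types, for Gata5 at 43.4 kb (5.25 and 6.01) and for Hand2 at 10.3 kb (5.28 and 5.86). Tbx6, a factor of presomitic mesoderm, showed the largest difference of an extended bait of these genes, 0 and 25.4 at the Aldoa promoter 15.4 kb away. Read from the Aldoa bait the same pair scored 14.0 and 8.89, so the value of 0 was not repeated from the other end. Six5, a homeobox gene beside Dmpk, contacted Sympk at 30.9 and 23.1 and Dmpk at 22.4 and 12.6.

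Far contacts made up a larger share of these genes' calls than of all calls. Calls at 200 kb or more were 30 of 176 in Sertoli cells, 17.0% (12.2 to 23.3), against 6.99% of all Sertoli calls. In pre-granulosa cells they were 14 of 96, 14.6% (8.89 to 23.0), against 5.06%. With extended baits the shares were 14.7% (10.8 to 19.7) against 6.17% and 15.5% (10.9 to 21.6) against 5.51%, so the difference appeared in both cell types and both tables. Median distances were 56.4 kb for Sertoli calls (40.8 to 76.3, the order-statistic interval; all baits 42.6 kb) and 44.8 kb for pre-granulosa calls (14.7 to 60.8; 26.0 kb). With extended baits, which hold no call under 10 kb, the medians were 47.5 and 34.5 kb against 47.95 and 37.9 kb, so the medians did not lie above those of all baits there.

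Klf3 alone held 14 of the 37 far interactions. Without it the far shares were 11.1% (7.14 to 16.9) in Sertoli and 8.89% (4.57 to 16.6) in pre-granulosa cells, and 11.2% (7.76 to 15.9) and 12.0% (7.94 to 17.9) with extended baits. The pre-granulosa interval for original baits then held the value of all baits, and the other intervals did not. Without Sox6 and Sox13 as well they were 9.80% (6.03 to 15.5) and 7.95% (3.91 to 15.5), and 8.06% (5.09 to 12.5) and 9.55% (5.88 to 15.2) with extended baits. All of these intervals except that for pre-granulosa cells with extended baits held the value of all baits, and each of the 4 shares was still the higher one. These 3 genes were left out because they had many far calls, so the shares had to fall without them. The far interactions came from 17 genes with original and 24 with extended baits, 15 of them in both. By gene, 8 had far calls in Sertoli cells alone, 4 in pre-granulosa cells alone, 4 a shared one, and Tbx5 one of each kind (original baits). With extended baits 8, 7 and 7 genes did so, and the far call of Pou2f1 was a Sertoli call in one table (236 kb) and a pre-granulosa call at another bin in the other (231 kb).

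The member baits lay in sparser surroundings. A median of 4 other protein-coding genes (3 to 5) lay within 200 kb on each side, against 8 for all baits. Among baits with at most 4 such neighbours, a limit chosen after the values were seen, the far shares were 25.3% (17.7 to 34.6) and 25% (15.5 to 37.7) in Sertoli and pre-granulosa cells, against 15.6% and 11.8% of all baits with as few neighbours. Without Klf3 they were 15.3% (9.16 to 24.4) and 16% (8.34 to 28.5), intervals that held the values of all such baits. With extended baits the shares were 24.2% (17.5 to 32.4) and 25% (17.5 to 34.3), against 14.4% and 12.4%. Without Klf3 they were 18.0% (12.0 to 26.2) and 19.6% (12.7 to 28.8), of which the Sertoli interval held the value of all such baits and the pre-granulosa interval lay just above it. Gene density therefore moved with the far share, and its part in the result was not tested further.

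**Figure D4:**
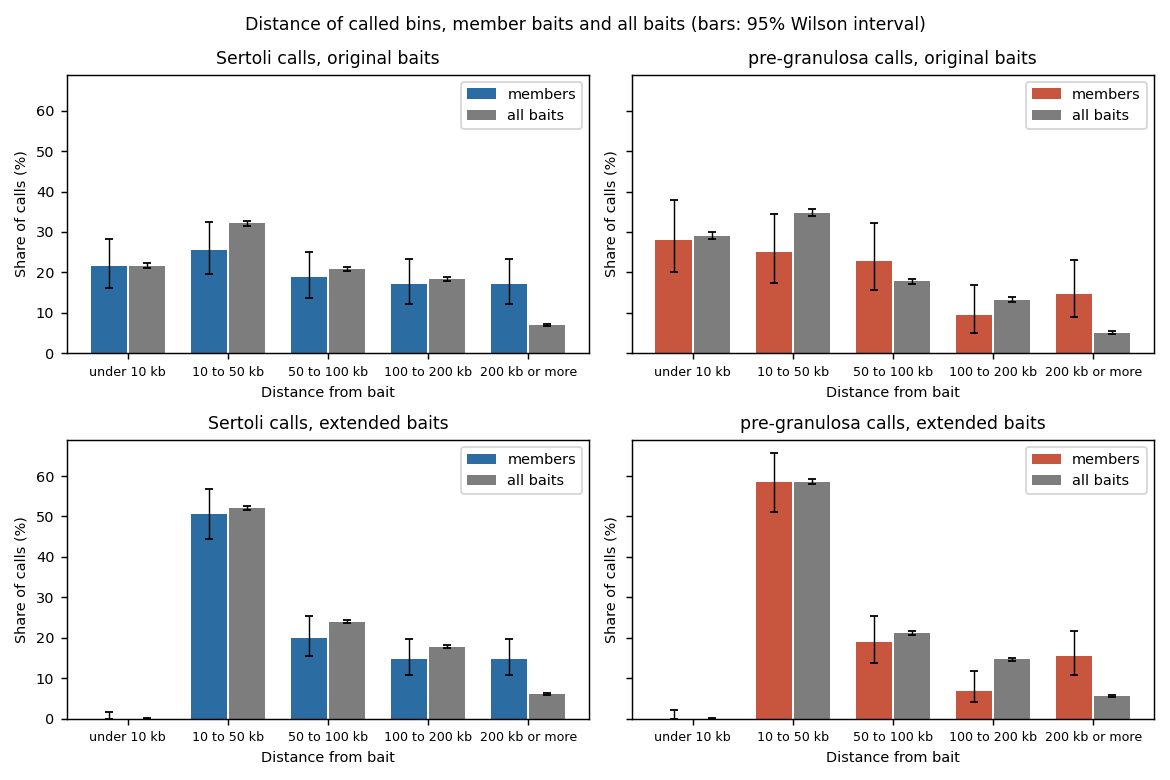
Share of calls (y axis, percent) by distance from the bait (x axis) for member baits in colour and all baits in grey, for each cell type and table; bars are 95% Wilson intervals. In each panel the member share at 200 kb or more, 14.6% to 17.0%, lies above the 5.06% to 6.99% of all baits.

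Bins without any RefSeq gene made up 27.7% of the members' interactions (62 of 224; 22.2 to 33.9), against 20.3% over all baits, and 32.7% against 22.0% at 20 kb or more. With extended baits the shares were 19.7% and 11.4%. Bins overlapping the bait's own gene were 29.0% of the interactions, near the 29.9% of all baits, and 27.8% against 20.8% with extended baits. Bins over another gene were 43.3% against 49.7%. Extended bins that were themselves named promoter baits were 40.9% (131 of 320; 35.7 to 46.4) against 54.8% over all baits. Among shared interactions 41.7% lay in the bait's own gene with original baits (28.8 to 55.7; all baits 39.8%) and 42.4% with extended baits (33.2 to 52.3; 24.0%).

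Promoter contacts could be read from both ends where both were baited. Of the 131 contacts with a baited promoter, 46 ended at a member: 37 at another start of the same gene and 9 at another member, namely within Dlx1 and Dlx2, Dlx5 and Dlx6, Hes2 and Hes3, and Zic1 and Zic4. The 131 contacts joined 116 different pairs of bins, of which 73 were listed from both ends and 43 from one end only. Of the 73, 60 had the same class from each end (82.2%, 71.9 to 89.3), against 75.9% of 9469 such pairs over all baits. None of the 73 was called in opposite single cell types, as were 0.359% over all baits. The higher cell type was the same in 66 (90.4%), against 90.6%. These pairs had to reach a score of 5 from both ends, and the 43 others are not covered by the shares. The end-to-end reading uses the same libraries and is no independent replicate.

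**Figure D5:**
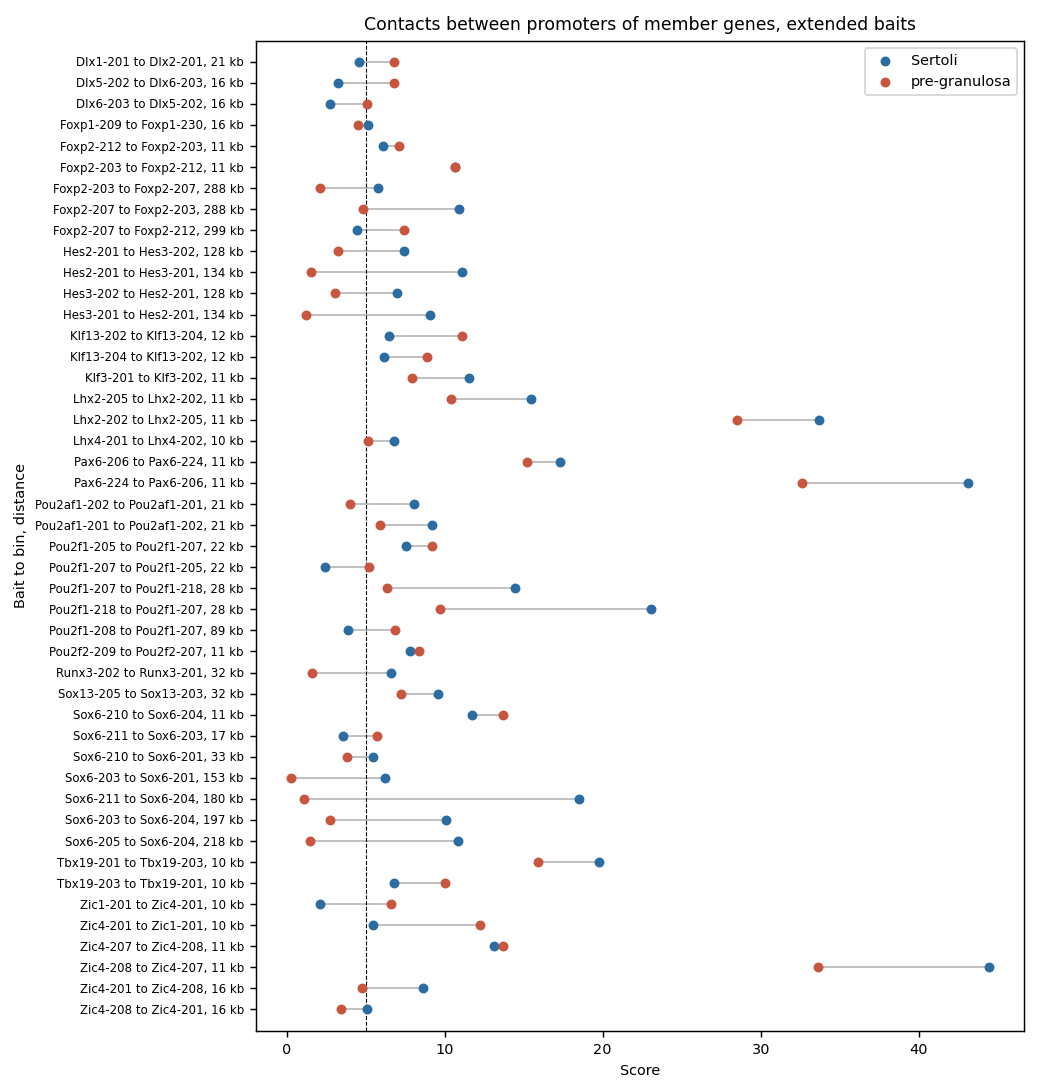
Sertoli (blue) and pre-granulosa (red) scores (x axis) of the 46 contacts between promoters of member genes, extended baits, each named by bait, bin and distance (y axis); the dashed line marks 5. Sox6-204 with 3 internal starts and Hes2 with Hes3 lie far apart in favour of Sertoli cells, while Zic1 with Zic4 and Dlx5 with Dlx6 lie the other way.

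Neighbouring fragments of a gene gave less even readings. With original baits, 24 pairs of baits of the same gene, at 10 genes, listed the same bin, and 6 of them had the same class (25%; 12.0 to 44.9), against 48.0% of 4029 such pairs over all baits. At 4 pairs the classes were opposite (556 of 4029 over all baits), as at Klf15, a metabolic regulator, where a bin about 48 kb away scored 1.10 and 6.55 from one fragment and 6.81 and 2.80 from the next. With extended baits 15 of 36 pairs agreed (41.7%; 27.1 to 57.8), against 49.3%. Across tables no class turned over: of the 128 Sertoli-only interactions 64 met a Sertoli-only one of the extended bait, 12 a shared one and 0 a pre-granulosa-only one, and 52 had no match. Of the 48 pre-granulosa-only interactions 21 met the same class, 7 a shared and 0 a Sertoli-only one. Both tables come from the same libraries.

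Of 27 genes listed for a known part in gonad development, the selection held Lhx2, Pax8, Meis2 and Hey1. It could not hold genes off chromosomes 1 to 9 or without a listed interaction within their chromosome. Their number is therefore no finding about which genes were baited. They had 9 Sertoli calls, 7 pre-granulosa calls and 3 shared from original baits, and 14, 14 and 9 from extended ones. The ratios of Sertoli to pre-granulosa calls were thus 1.29 and 1, against 1.93 and 1.41 over all baits. The shared calls were 33.3% (12.1 to 64.6) and 64.3% (38.8 to 83.7) of the Sertoli calls, against 27.0% and 43.9%. The other listed genes, among them Sox9, Foxl2 and Gata4, were not analysed here. Of 45 genes listed for neural development, the same selection held 10 with original baits, with 41 Sertoli and 27 pre-granulosa calls and 18 shared. With extended baits it held 14, with 51, 43 and 27. The shared calls were 43.9% (29.9 to 59.0) of the Sertoli and 66.7% (47.8 to 81.4) of the pre-granulosa calls, against 27.0% and 52.3% over all baits. With extended baits they were 52.9% (39.5 to 65.9) and 62.8% (47.9 to 75.6), against 43.9% and 61.8%, and no test of a list was made. The calls of this list lay nearer to the bait, at medians of 13.4 and 10.7 kb against 42.6 and 26.0 kb with original baits. The shares were not corrected for distance.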

How the data were processed

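Capture Hi-C was measured in 3 Sertoli and 2 pre-granulosa libraries, and the deposited tables give 1 CHiCAGO score per cell type for each interaction, made by the authors from all libraries of that type per the labels. The build was mm10, per the submitters' processing notes; the aligner and its settings are not given in the sources used here. How libraries were combined, and their depth, are likewise not given. Every listed interaction reaches a score of 5 in at least 1 cell type, so bins under it in both are not seen, and a score of 0 is no measured absence.

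From these tables, interactions within a chromosome were kept on chromosomes 1 to 9, bait names were split into genes, and calls, classes, distances and 95% Wilson intervals were computed in Python 3.11.15 with pandas 2.3.3, NumPy 2.4.6 and SciPy 1.17.1. Scores are printed as Sertoli, then pre-granulosa. Genes and promoters came from RefSeq (GRCm38.p6), matched by symbol. All 954 bait starts inside a promoter window began with GATC, which checked build and coordinates. The scripts were tested on simulated data. Named genes are the leading gene of each family, those with the largest excess of calls in a cell type, the highest, farthest and most different interactions, contacts between members, and those of the gonad list; Klf13, Klf15, Foxe3, Foxc2, Foxp2, Sox12, Sox17, Sox18, Lhx8, Pax6, Pou2af1, Hes6, Tbx6, Six5, Nkx1-2 and Foxm1 were named after their values were seen. The members and lists were chosen with earlier results of these data known. Alternatives were the extended baits, thresholds of 7 and 10, equal numbers of calls, a minimum distance of 20 kb, touching bins and bait subsets.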

Additional observations from a re-analysis of the deposited data

Results flagged for a closer look

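Interactions between chromosomes stood outside the comparisons above. From original baits on chromosomes 1 to 9 whose symbols match the family patterns, 8 of them were called, all in pre-granulosa cells and each listed at 0 in Sertoli cells, and the extended table likewise held 8. Of these baits 3 original and 6 extended ones are among those described above, and the others, Foxr1 and Pou3f2 among them, have no interaction within their chromosome listed in that table. They came from 1 bait each of Sox17, Pax5, Foxr1, Pax6, Zic4, Pou3f2, Dlx1 and Pou2f1 with original baits, and the highest, from Sox17-201, scored 24.7 (22.6 from the extended bait). Over all baits 235 of the 269 listed interactions between chromosomes were pre-granulosa calls and 35 were Sertoli calls (212 and 23 of 232 with extended baits), so their direction was that of the whole table. The cause was not tested.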

How the results depend on the processing

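No leave-one-out analysis could be made, since each cell type has 1 column of scores. No paired analysis was possible because the columns carry no replicate numbers. Counting touching bins as 1 contact and leaving out Pou2f1 (a choice added after seeing the data) kept all 9 main results. Keeping only baits that name members left the original baits as they were, since none carries another symbol, and so tested nothing there. The following values moved, and the cause was not tested. Extended baits gave 174 pre-granulosa calls, a shared share of Sertoli calls of 40.4% and 50.5% of baits with more Sertoli calls; with baits of members only (added after seeing the data) these were 168, 40.8% and 50.5%. A threshold of 7 left 64 Sertoli and 37 pre-granulosa calls, and one of 10 left 21 and 9 with a Sertoli median distance of 14.3 kb. Equal numbers of calls gave 85 Sertoli calls, a ratio of 0.885 (reversed), shared shares of 38.8% and 34.4%, and 30.4% and 50% of baits with more Sertoli and more pre-granulosa calls. At 20 kb or more there were 54 pre-granulosa calls, shared shares of 16.8% and 37.0%, and medians of 100.6 and 76.1 kb. Counting as specific only interactions under 1 in the other cell type left 39 and 6.

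Excesses of Sertoli over pre-granulosa calls changed sign as follows. Extended baits, with or without the baits that carry another symbol, gave Foxd3 1 and Foxj2 -1, and among genes named after their values were seen, extended baits gave Foxm1 -3, Lhx8 -1 and Pax6 -1. A threshold of 7 gave the Klf family, Klf1 and Sox6 -1 each, and one of 10 gave Klf1 and Pou2f1 -1. Equal numbers of calls gave Klf -5, Sox, Lhx and Hes -2 each, Klf1 -3, Hes5 and Sox6 -2, and Foxj2 -1. At 20 kb or more Lhx2 came to -1 and Pax5 to 1. Depth is unknown, so a score under 5 shows no absence of contact.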
